A study of Mus musculus with 4 samples.

Results

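DNA replication genes were examined in cardiomyocytes that had been derived from the CGR8 line of mouse embryonic stem cells. The cells had received an siRNA directed at Erbb4 (siErbB4) or a scrambled siRNA (siScr) for 48 hours. Erbb4 encodes a receptor tyrosine kinase that binds neuregulins. The set of 39 genes was chosen by symbol, and a probe for each of the 39 was found among the probes of the arrays through its RefSeq accession. After a filter on dim probes, 38 of them were among the 20909 features tested, and the other one, Ccne2, is given by its signals. Each group held 2 samples, numbered 1 and 2 in the sample titles, and each sample's total RNA was read on a separate Agilent array with a single dye. All 4 samples came from the same cell line in medium with 2% serum, and transfected cells were compared with transfected cells only. The sources used here do not say how pure the cardiomyocytes were, what the replicate number stands for, or whether replicates were separate cultures. P-values here thus cover the spread between these 4 samples, which may be technical. Groups follow the titles and the transfection label, although other labels disagree: the siErbB4 samples are described as si-Scr, and replicate 2 has ErbB5 in its source name.

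A cell copies its DNA in ordered steps. Origins are licensed when the origin recognition complex, Cdc6 and Cdt1 load the ring of Mcm2 to Mcm7, the helicase is then activated by Cdc45 and the GINS complex, and polymerases with the sliding clamp Pcna copy the strands from nucleotides made by enzymes such as ribonucleotide reductase. Many of these genes are transcribed late in G1 and in S phase under E2F transcription factors, and heart muscle cells largely stop replicating their DNA as they mature.

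Levels are log2 processed signals minus the 75th percentile of the same array, so a level can be compared between arrays but not between probes. The 75th percentile lay between 878 and 989. The share of probes well above background lay between 64.8% and 68.5%. All 38 tested genes were well above background on all 4 arrays. All 15 listed cardiomyocyte markers also passed the filter on dim probes. The probe for the targeted gene, Erbb4, read a signal of 15.04 and 2.83 in siErbB4 replicates 2 and 1, against 11.9 and 9.02 in siScr replicates 2 and 1, and was well above background on 1 array, so it does not check the knockdown. All 4 arrays lay on 1 slide. The replicate 2 arrays held positions 2 (siErbB4) and 1 (siScr), and the replicate 1 arrays held positions 4 (siErbB4) and 3 (siScr), so the replicate number and the place on the slide cannot be told apart. Over 8 spike-in probes the median difference, replicate 2 minus replicate 1, was 0.04 in siErbB4 and 0.12 in siScr.

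The replication genes were higher in the replicate 2 arrays than in the replicate 1 arrays of both groups. The median log2 difference, replicate 2 minus replicate 1, was 0.69 over the 38 genes, against 0.02 over all features tested. All 38 estimates were above 0, as were 53% of all features. At 36 of the 38 genes both replicate 2 arrays lay above both replicate 1 arrays, beside 29.4% of all features. With 5.2% of all features called in either direction, limma, with Benjamini-Hochberg adjustment over all features, called 12 of the 38 higher in replicate 2 and 0 lower, beside 2.87% of all features called higher and 2.32% lower. With the group as a term in the fit it called 14 higher, beside 3.76% of all features. The called genes were Rrm2, Tk1, Cdc45, Gins1, Rrm1, Pole, Chaf1b, Rfc4, Lig1, E2f1, Mcm5 and Gins2, and their adjusted limma p-values, from 0.0193 to 0.0496, lay close to the threshold of 0.05. An unadjusted limma p under 0.05 was found for 32 of the 38, beside 23% of all features. In these bulk samples a larger share of replicating cells and more RNA of these genes per cell cannot be told apart.

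The number of calls changed when an array was left out. Such a run keeps a single array for that replicate number and holds less information on the spread. The left-out array's own values and the smaller fit thus cannot be told apart. The median estimate over the 38 genes lay between 0.55 and 0.84 in these runs. No member was called without siErbB4 replicate 2, without siScr replicate 1 or without siScr replicate 2, where 20, 31 and 25 members had an unadjusted limma p under 0.05, beside 13.9%, 25.4% and 12.9% of all features. Without siErbB4 replicate 1, 24 were called, beside 7.42% of all features. With no filter on dim probes 0 were called by limma, with 30 at an unadjusted p under 0.05, beside 14.3% of all features. The direction held more widely than the calls: all 38 estimates were above 0 in every alternative run except the one without siScr replicate 1, where Orc6 and Slbp were below 0.

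**Figure D1:**
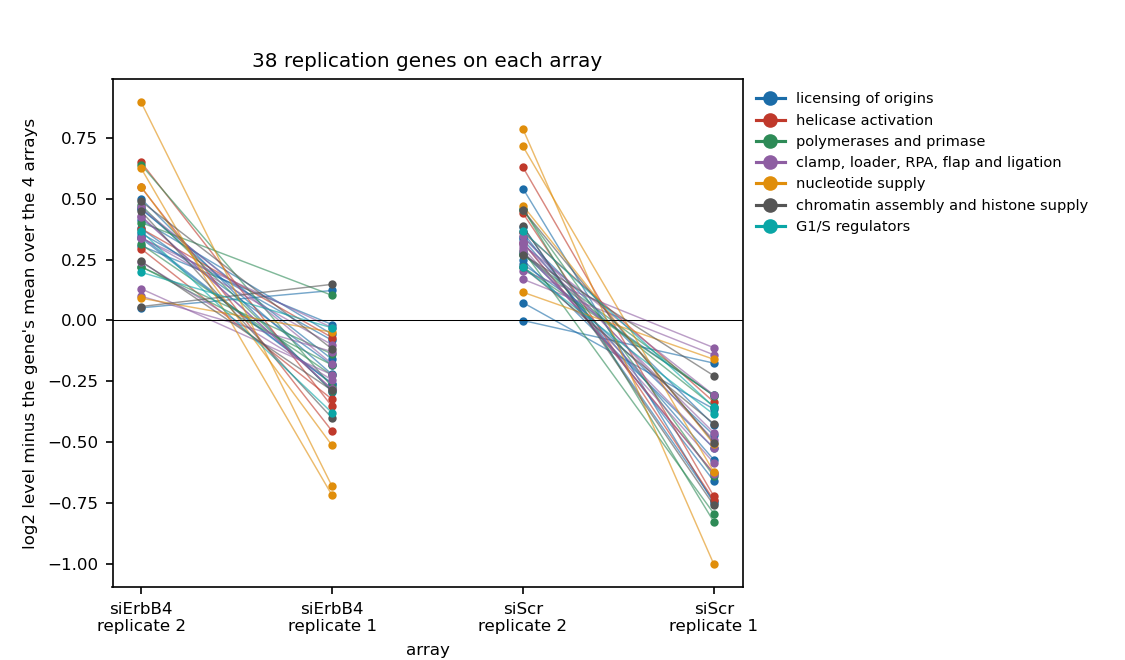
Log2 level of each of the 38 tested replication genes minus that gene's mean over the 4 arrays (vertical axis), for siErbB4 replicates 2 and 1 and siScr replicates 2 and 1 (horizontal axis). Each point is 1 gene on 1 array, lines join the arrays of a group, and colours mark the step. At 36 of the 38 genes both replicate 2 arrays lie above both replicate 1 arrays.

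**Figure D2:**
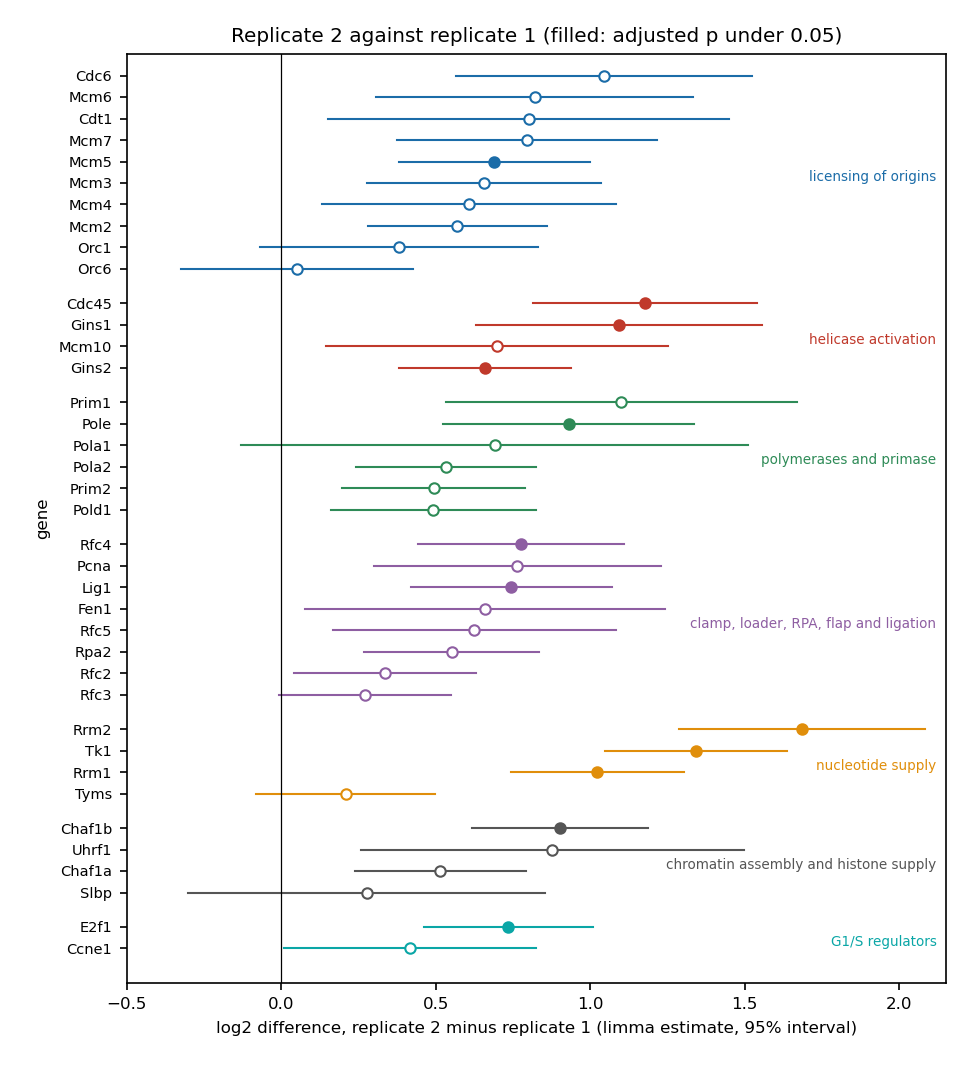
Limma estimate of the log2 difference, replicate 2 minus replicate 1, with its 95% interval, for each tested gene by step. Filled points mark the 12 genes with an adjusted p under 0.05, and every estimate is above 0, from 0.05 at Orc6 to 1.68 at Rrm2.

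Licensing genes had a median difference of 0.67, with 1 of 10 called. Mcm5, a subunit of the hexameric helicase, had levels of 2.39 in siErbB4 replicate 2 and 1.79 in siErbB4 replicate 1, against 2.39 in siScr replicate 2 and 1.62 in siScr replicate 1. Its estimate was 0.69 (SE 0.12, limma adjusted p 0.0496, n = 2 arrays per replicate number), and with the group as a term the adjusted p was 0.0503. The other helicase subunits Mcm2, Mcm3, Mcm4, Mcm6 and Mcm7 had estimates of 0.57 to 0.82 and did not pass, with adjusted limma p-values of 0.0634 to 0.144. With the group as a term Mcm7 passed, with an adjusted limma p of 0.0416. Within a group, the 6 subunits were higher in replicate 2 by 0.44 to 0.68 in siErbB4 and by 0.54 to 1.02 in siScr.

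Among the loaders of that ring, Cdc6, an ATPase that works with the origin recognition complex, had the largest licensing estimate in the main fit. Its levels were -1.40 and -2.19 in siErbB4 replicates 2 and 1, against -1.36 and -2.65 in siScr replicates 2 and 1. The replicate 2 arrays of both groups thus lay close together, while the replicate 1 arrays were lower and further apart. The estimate was 1.04 (SE 0.18), with an adjusted limma p of 0.0523, and 0.0418 with the group as a term. Its second probe gave 1.10 in siErbB4 and 1.50 in siScr. With normexp, an alternative background correction, the Cdc6 estimate was 0.79, below 0.85 at Mcm7. Cdt1, the loading factor that geminin blocks, had levels of 3.22 and 2.75 in siErbB4 replicates 2 and 1, against 3.19 and 2.06 in siScr replicates 2 and 1, and an estimate of 0.80 (SE 0.25, adjusted limma p 0.152). Orc1, the large subunit of the origin recognition complex, gave 0.38 (SE 0.17, adjusted limma p 0.277). Orc6, its smallest subunit, had levels of 1.80 and 1.87 in siErbB4 replicates 2 and 1, against 1.74 and 1.57 in siScr replicates 2 and 1. Its estimate of 0.05 (95% interval -0.32 to 0.43) was the lowest of the 38.

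Sequence upstream of these genes was set beside the expression values, since E2F sites near the start are a known feature of S-phase promoters. RefSeq promoter windows (GRCm38.p6, 250 bases before to 50 after a start, 300 bases in all) were found for 32 of the 39 genes. The E2F letters TTTGGCGC, TTTCCCGC, TTTGCCGC and TTTCGCGC were searched on both strands, and a gene counted once if any of its windows held a match. A match was found for 12 of the 32 genes, or 37.5%, against 2.6% of all 27025 genes with a window and 2.26% of all 32851 windows. Of the licensing genes 7 of 9 held one, and of the nucleotide supply genes 0 of 4. In the windows below, matches are in capitals. Those of Mcm5, Mcm6, Mcm3 and Cdc6 show licensing genes with matches, and those of Rrm2 and Tk1 show the nucleotide genes with the largest estimates, which held none.
Mcm5 promoter, chr8:75109259-75109558, forward strand: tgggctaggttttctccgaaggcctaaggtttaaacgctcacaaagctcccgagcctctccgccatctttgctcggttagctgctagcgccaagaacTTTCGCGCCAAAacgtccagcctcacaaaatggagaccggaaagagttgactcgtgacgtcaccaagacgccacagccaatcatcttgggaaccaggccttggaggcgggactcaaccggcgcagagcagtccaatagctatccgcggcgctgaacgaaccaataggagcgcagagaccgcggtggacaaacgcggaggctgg
Mcm6 promoter, chr1:128359656-128359955, reverse strand: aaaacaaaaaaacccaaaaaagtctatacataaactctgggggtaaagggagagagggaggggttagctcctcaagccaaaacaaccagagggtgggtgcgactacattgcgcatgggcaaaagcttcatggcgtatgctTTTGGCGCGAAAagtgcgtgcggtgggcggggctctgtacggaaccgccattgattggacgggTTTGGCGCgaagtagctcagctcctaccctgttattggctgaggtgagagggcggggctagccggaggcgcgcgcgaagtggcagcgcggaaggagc
Mcm3 promoter, chr1:20820263-20820562, reverse strand: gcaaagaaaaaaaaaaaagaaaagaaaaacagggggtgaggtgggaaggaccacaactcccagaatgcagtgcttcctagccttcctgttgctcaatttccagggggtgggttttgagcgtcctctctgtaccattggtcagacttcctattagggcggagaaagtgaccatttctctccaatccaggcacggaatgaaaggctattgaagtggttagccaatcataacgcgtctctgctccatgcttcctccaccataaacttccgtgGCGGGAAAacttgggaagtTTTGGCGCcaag
Cdc6 promoter, chr11:98907901-98908200, forward strand: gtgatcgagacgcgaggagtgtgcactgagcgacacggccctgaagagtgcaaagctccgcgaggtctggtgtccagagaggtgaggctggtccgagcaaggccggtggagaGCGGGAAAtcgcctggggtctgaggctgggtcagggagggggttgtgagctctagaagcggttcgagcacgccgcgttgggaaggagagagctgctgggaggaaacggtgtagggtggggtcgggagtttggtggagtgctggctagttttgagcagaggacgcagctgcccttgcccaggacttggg
Rrm2 promoter, chr12:24708004-24708303, forward strand: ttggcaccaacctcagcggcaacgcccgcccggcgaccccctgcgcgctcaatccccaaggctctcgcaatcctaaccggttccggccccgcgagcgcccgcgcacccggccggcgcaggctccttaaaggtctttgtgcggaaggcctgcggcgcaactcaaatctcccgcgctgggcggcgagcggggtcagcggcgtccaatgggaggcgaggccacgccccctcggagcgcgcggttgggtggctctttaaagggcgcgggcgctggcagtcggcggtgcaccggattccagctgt
Tk1 promoter, chr11:117825965-117826264, reverse strand: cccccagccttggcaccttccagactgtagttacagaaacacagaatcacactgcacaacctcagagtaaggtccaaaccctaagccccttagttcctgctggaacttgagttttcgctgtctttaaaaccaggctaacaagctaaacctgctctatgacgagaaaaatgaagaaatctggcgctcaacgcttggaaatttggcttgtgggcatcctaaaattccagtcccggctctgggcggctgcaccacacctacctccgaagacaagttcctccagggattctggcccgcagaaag
The Mcm5 window holds overlapping matches on opposite strands that start 153 and 149 bases before the start site. In Mcm6 the matches start 110, 106 and 47 bases before it, in Cdc6 138 bases before it, and in Mcm3 at bases 20 and 39 after it. By call, 2 of 9 called genes with a window held one, and 10 of 23 genes that were not called. A window with no match lacks these letters only.

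Other motifs were counted in the same windows, each on its own, so matches of different motifs may overlap. The letters CCAAT, the box bound by NF-Y, were in windows of 59.4% of the replication genes and 41.1% of all genes. They were also in windows of 76.0% of mitosis genes and 56.5% of other replication genes. The letters TTTGAA, the cell cycle homology region (CHR) known from genes of late S phase and mitosis, were in windows of 3 of the 32 replication genes, or 9.38%, against 20.2% of all genes. For E2F and TTTGAA, mitosis genes had the other pattern, with TTTGAA at 18 of 25 and an E2F match at 1 of 25. These shares describe letters in a window and were not tested.

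**Figure D3:**
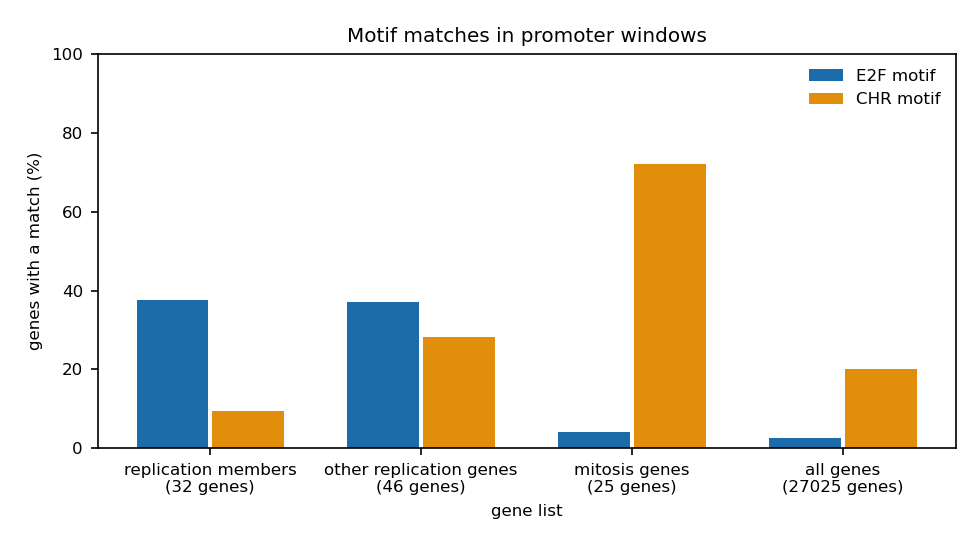
Share of genes (percent, vertical axis) whose RefSeq promoter window holds an E2F match or the CHR letters TTTGAA, for the replication genes, other replication genes, mitosis genes and all genes. E2F matches stand at 37.5% of the replication genes and 2.6% of all genes, and CHR matches at 72.0% of the mitosis genes.

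Helicase activation genes had a median difference of 0.89, with 3 of 4 called. Cdc45, the activator that rides on the ring, had levels of -1.91 and -2.91 in siErbB4 replicates 2 and 1, against -1.83 and -3.18 in siScr replicates 2 and 1. Its estimate was 1.18, or 2.26-fold (SE 0.14, adjusted limma p 0.0273). Gins1, a GINS subunit, had levels of -0.10 and -1.10 in siErbB4 replicates 2 and 1, against -0.31 and -1.48 in siScr replicates 2 and 1, and an estimate of 1.09 (SE 0.18, adjusted limma p 0.0462). In both genes the difference was at least 1 in each group. Gins2, another GINS subunit, gave 0.66 (SE 0.11, adjusted limma p 0.0460; 0.0503 with the group as a term). Mcm10, which joins helicase activation to polymerase recruitment, gave 0.70 (SE 0.21) and did not pass, with an adjusted limma p of 0.145.

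Polymerase and primase genes had a median difference of 0.61, with 1 of 6 called. Pole, the catalytic subunit of the leading strand polymerase, had levels of 0.62 and -0.14 in siErbB4 replicates 2 and 1, against 0.61 and -0.49 in siScr replicates 2 and 1. Its estimate was 0.93 (SE 0.15, adjusted limma p 0.0477). A second Pole probe was dim, with signals of 7.77 to 14.7, and well above background on both replicate 1 arrays and neither replicate 2 array, so no fold is given for it. Prim1, the catalytic subunit of primase, gave a larger estimate of 1.10 with a larger error (SE 0.22, adjusted limma p 0.0651; 0.0314 with the group as a term), from levels of 1.54 and 0.63 in siErbB4 replicates 2 and 1, against 1.36 and 0.07 in siScr replicates 2 and 1. The primase regulatory subunit gene Prim2 and the polymerase genes Pola2 and Pold1 gave 0.49 to 0.53 and did not pass. Pola1, the catalytic subunit of polymerase alpha, had levels of -0.11 and -0.41 in siErbB4 replicates 2 and 1, against -0.23 and -1.31 in siScr replicates 2 and 1. Its siScr replicate 1 array stood below the other arrays, and the 95% interval of its estimate, -0.13 to 1.51, included 0.

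Clamp, clamp loader, strand-binding and flap-processing genes had a median difference of 0.64, with 2 of 8 called. Rfc4, a clamp loader subunit, had levels of 2.33 and 1.61 in siErbB4 replicates 2 and 1, against 2.24 and 1.40 in siScr replicates 2 and 1, with an estimate of 0.78 (SE 0.13, adjusted limma p 0.0470). Its second probe read 0.74 in siErbB4 and 0.85 in siScr, next to 0.71 and 0.84 for the first. Lig1, the ligase that joins Okazaki fragments, gave 0.74 (SE 0.12, adjusted limma p 0.0480). The clamp gene Pcna gave a similar estimate, 0.76, with a wider error (SE 0.18) and did not pass (adjusted limma p 0.0883; 0.0457 with the group as a term). Its levels were 3.97 and 3.32 in siErbB4 replicates 2 and 1, against 3.80 and 2.92 in siScr replicates 2 and 1. The flap nuclease gene Fen1 gave 0.66, the loader gene Rfc5 0.62 and Rpa2, a subunit of the single-strand binding protein, 0.55. Rfc2 at 0.33 and Rfc3 at 0.27 gave the lowest estimates of this step, so the 4 loader genes of the set ran from 0.27 to 0.78.

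Nucleotide supply genes had a median difference of 1.18, with 3 of 4 called, and held both the largest estimate of the set and one of the smallest. Rrm2, the regulated small subunit of ribonucleotide reductase, had levels of 4.26 and 2.68 in siErbB4 replicates 2 and 1, against 4.15 and 2.36 in siScr replicates 2 and 1. Its estimate was 1.68, or 3.21-fold (SE 0.15, 95% interval 1.29 to 2.08, adjusted limma p 0.0211). Tk1, the cytosolic thymidine kinase of dividing cells, had levels of 2.17 and 0.83 in siErbB4 replicates 2 and 1, against 2.26 and 0.92 in siScr replicates 2 and 1. Its difference was 1.34 in each group, and its estimate of 1.34 (SE 0.11) had the lowest adjusted limma p of the set, 0.0193. Rrm1, the large reductase subunit, had levels of 2.33 and 1.27 in siErbB4 replicates 2 and 1, against 2.25 and 1.27 in siScr replicates 2 and 1, with an estimate of 1.02 (SE 0.11, adjusted limma p 0.0246). Tyms, thymidylate synthase, had levels of -3.20 and -3.34 in siErbB4 replicates 2 and 1, against -3.18 and -3.45 in siScr replicates 2 and 1. The replicate numbers did not overlap at Tyms, yet its estimate was 0.21 (SE 0.11, 95% interval -0.08 to 0.50), and its interval lay below those of Rrm1, Rrm2 and Tk1. The Tyms probe was dim, with signals of 90.4 to 102, against 1675 to 17940 for the probes of Rrm1, Rrm2 and Tk1. With normexp, an alternative background correction, its estimate was 0.13. The difference between Tyms and the other genes of this step, and the part of probe brightness in it, were not tested.

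Chromatin assembly and histone supply genes had a median difference of 0.70, with 1 of 4 called. Chaf1b, a subunit of the chromatin assembly factor that places histones behind the fork, had levels of 2.07 and 1.22 in siErbB4 replicates 2 and 1, against 2.07 and 1.11 in siScr replicates 2 and 1. Its estimate was 0.90 (SE 0.11, adjusted limma p 0.0279), and its second probe gave 0.76 in siErbB4 and 1.13 in siScr. Chaf1a, the large subunit of the same factor, gave 0.51 (SE 0.11) and did not pass, with an adjusted limma p of 0.0706. Uhrf1, which brings the maintenance DNA methyltransferase to newly copied DNA, gave 0.88 (SE 0.24, adjusted limma p 0.119). Slbp, which binds the stem-loop of histone mRNAs, had levels of -1.67 and -1.58 in siErbB4 replicates 2 and 1, against -1.51 and -2.15 in siScr replicates 2 and 1. Its difference was -0.09 in siErbB4 and 0.64 in siScr, and its second probe gave -0.05 and 0.66 in the same order.

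Regulators of S-phase entry were represented by E2f1, an activating E2F transcription factor, and the E-type cyclins that activate Cdk2. E2f1 had levels of -0.256 and -1.003 in siErbB4 replicates 2 and 1, against -0.257 and -0.979 in siScr replicates 2 and 1, and an estimate of 0.73 (SE 0.10, adjusted limma p 0.0351). The siErbB4 and siScr arrays of the same number were nearly level for this gene. Ccne1 gave 0.42 (SE 0.16, adjusted limma p 0.211). Ccne2 was too dim for the filter. Its signal was 24.4 and 8.33 in siErbB4 replicates 2 and 1, against 18.6 and 9.25 in siScr replicates 2 and 1, well above background on both replicate 2 arrays and on neither replicate 1 array. For a rough fold, each replicate 1 signal was set to the higher of itself and the lowest signal of a probe well above background. That lowest signal was 9.63 to 12.0 across arrays. On this setting Ccne2 was 2.20-fold higher in replicate 2. The setting is not an upper limit for a probe that was not flagged well above background, so the fold is not a firm lower bound.

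Within single groups there is 1 array against 1 and no test. Replicate 2 lay above replicate 1 at 36 of the 38 genes in siErbB4, beside 49.2% of all features, and at all 38 in siScr, beside 55%. It lay 1 or more above replicate 1 at 5 of the 38 genes in siErbB4, beside 2.72% of all features, and at 11 in siScr, beside 3.28%. Cdc45, Gins1, Rrm2 and Tk1 were past 1 in both groups. The median over the 38 genes was 0.58 in siErbB4 and 0.79 in siScr, and the difference was smaller in siErbB4 at 31 of the 38 genes, as at 53.9% of all features. By step, the medians in siErbB4 and siScr were 0.58 and 0.77 for licensing, 0.81 and 1.06 for helicase activation, and 0.47 and 0.85 for polymerases. They were 0.46 and 0.79 for clamp and flap genes, 0.57 and 0.80 for chromatin assembly, and 1.20 and 1.16 for nucleotide supply. Across the 38 genes, which share the arrays and are not independent, the differences in siErbB4 and siScr had a Pearson correlation of 0.784 and a Spearman correlation of 0.723.

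Between the siErbB4 and siScr groups no replication gene passed the test. The median log2 difference, siErbB4 minus siScr, was 0.17 over the 38 genes, against -0.01 over all features. Limma called 0 of the 38 at an adjusted p under 0.05, and none had an unadjusted limma p under 0.05, while 0% of the 20909 features were called and 1.79% had such an unadjusted p. The lowest unadjusted limma p of the set was 0.272, at Orc1. With the replicate number as a block the lowest was 0.0602, at Prim1. In that fit 0 of the 38 had an unadjusted limma p under 0.05, beside 7.47% of all features. The smallest two-sided p of an exact permutation test is 0.333 with 2 arrays in each group, and it is the same for replicate 2 against replicate 1. Estimates were above 0 at 31 genes, as at 47.1% of all features, and the groups did not overlap at 1 gene, Orc6, with siErbB4 higher (13.1% of all features). No gene had both siErbB4 arrays below both siScr arrays, beside 15.9% of all features. The intervals were wide where the replicates were far apart: Rrm2 gave 0.22 (SE 0.85, 95% interval -2.12 to 2.56), Mcm5 0.09 (SE 0.37, -0.93 to 1.10) and Orc6 0.18 (SE 0.14, -0.22 to 0.57).

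Among marker lists, 0 markers were called by limma between the groups, but pluripotency and fibroblast medians lay furthest from 0. Pluripotency markers had a median, siErbB4 minus siScr, of 0.48, with 11 of 12 above 0, 2 at an unadjusted limma p under 0.05 and 8 with both siErbB4 arrays above both siScr arrays. Fibroblast markers had a median of -0.47, with 11 of 12 below 0 and none at such a p. Of all features, 47.1% had an estimate above 0 and 1.79% such a p. The groups did not overlap, with siErbB4 higher, at 13.1% of all features. With the replicate number as a block, 4 of 12 pluripotency and 4 of 12 fibroblast markers had an unadjusted limma p under 0.05. The share was 7.47% of all features, and 0 markers of these lists were called in that fit. Within replicate 1 the median differences were 0.66 for pluripotency and -0.80 for fibroblast markers, and within replicate 2 they were 0.13 and -0.13. Their part in the replication gene values was not tested.

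The group difference was larger within replicate 1 than within replicate 2 at 31 of the 38 genes, which is the same contrast as the smaller replicate difference in siErbB4. Within replicate 1, siErbB4 minus siScr had a median of 0.29 over the 38 genes and a range of -0.11 to 0.90, with 33 genes above 0, as at 49.8% of all features. Within replicate 2 the median was 0.04 and the range -0.16 to 0.23, with 24 genes above 0, as at 44.7% of all features. Pola1 differed by 0.90 in replicate 1 and 0.11 in replicate 2, Cdt1 by 0.69 and 0.03, Uhrf1 by 0.64 and 0.10, and Fen1 by 0.60 and 0.02. Tk1 was level in this respect, at -0.10 in replicate 1 and -0.09 in replicate 2. The median over the 38 genes was -0.22 without siScr replicate 1 and -0.15 without siErbB4 replicate 2. It was 0.49 without siErbB4 replicate 1 and 0.55 without siScr replicate 2. Each of these runs left the groups unequal in replicate number, so the replicate difference enters these medians. Their change of sign cannot be told apart from that difference.

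**Figure D4:**
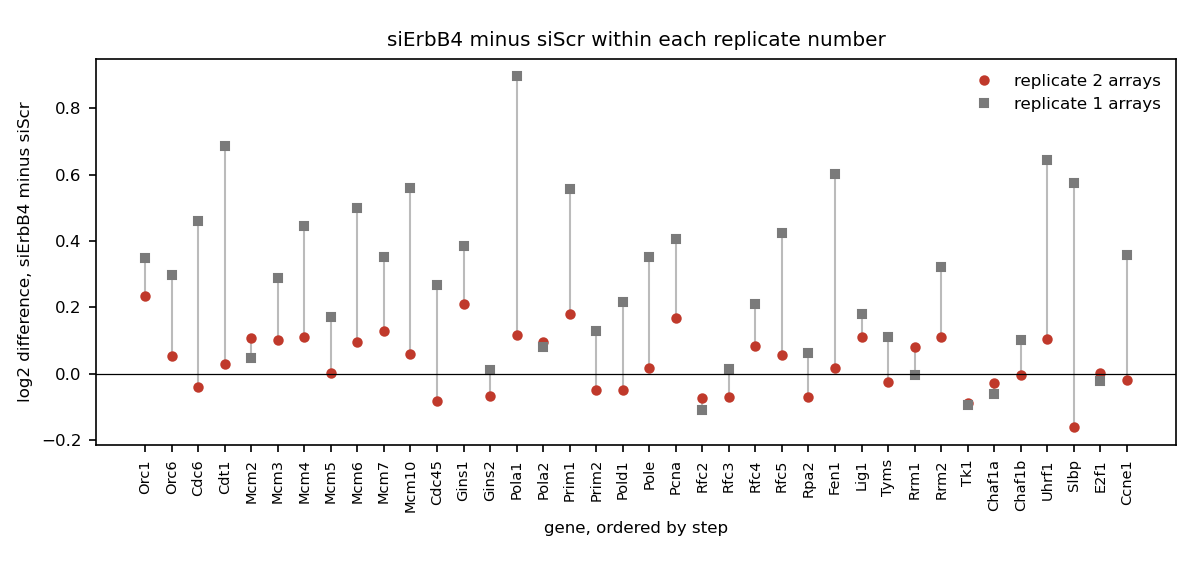
Log2 difference, siErbB4 minus siScr, for each replication gene within the replicate 2 arrays (circles) and within the replicate 1 arrays (squares), 1 array against 1. Replicate 2 values lie between -0.16 and 0.23, and replicate 1 values between -0.11 and 0.90.

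Of 58 other replication genes, all passing the filter on dim probes, 57 were well above background on all 4 arrays. Their median replicate difference was 0.44. Limma called 11 of the 58 higher in replicate 2 and 0 lower, beside 2.87% and 2.32% of all features. The lowest p-values were those of Ccna2, the S-phase and G2 cyclin, at 1.66 (SE 0.11), Top2a, a topoisomerase that untangles copied DNA, at 1.37 (SE 0.12), the histone chaperone gene Asf1b at 1.10 (SE 0.10) and the nuclease and helicase gene Dna2 at 1.01 (SE 0.12), with adjusted limma p-values of 0.0189 to 0.0273. Between siErbB4 and siScr 0 of the 58 were called by limma. Low unadjusted limma p-values were those of the mismatch repair gene Msh6 at 0.31 (p 0.125) and the polymerase delta subunit gene Pold4 at -0.35 (p 0.133). The checkpoint kinase gene Chek1 gave -0.25 (limma p 0.128), but it was dim, with levels of -5.98 to -5.67 over the 4 arrays.

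Mitosis genes had larger replicate differences than replication genes in these values, with a median of 1.28. Of 29 tested, 25 were called higher in replicate 2, beside 2.87% of all features. The difference between the lists was not tested. Kif4, a chromosome-bound kinesin, gave 1.64 (SE 0.12) and the centromeric histone gene Cenpa 1.48 (SE 0.11), each with an adjusted limma p of 0.0189. Among D cyclins and CDK inhibitors 3 of 15 were called higher and 3 lower, beside 2.87% and 2.32% of all features. Cdkn2c, an inhibitor of Cdk4 and Cdk6, gave 1.92 (SE 0.16) and Rbl1, a pocket protein that binds E2F factors, 1.00 (SE 0.11), with adjusted limma p-values of 0.0193 and 0.0251. Between siErbB4 and siScr none of these genes passed. Cenpe gave 0.41 (SE 0.59), Ect2 0.35 (SE 0.51), Ccnd2 -0.24 (SE 0.20) and Ccnd1 -0.34 (SE 0.29).

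Some cell type markers were called between the replicate numbers as well, beside 2.87% of all features called higher in replicate 2 and 2.32% lower. The 12 fibroblast markers had a median difference, replicate 2 minus replicate 1, of -1.01, with 3 called lower. Their summed linear level, in multiples of the 75th percentile, was 8.37 and 10.8 in the replicate 2 arrays of siErbB4 and siScr, against 23.8 and 41.3 in the replicate 1 arrays of siErbB4 and siScr. Of 6 tested smooth muscle markers 3 were called lower (median -0.58), with sums of 248 and 257 in replicate 2 of siErbB4 and siScr, against 436 and 553 in replicate 1 of siErbB4 and siScr. Myh11, the defining smooth muscle myosin, was not tested. The 15 cardiomyocyte markers had a median of 0.48, with 3 called higher, and sums of 2437 and 2680 in replicate 2 of siErbB4 and siScr, against 1979 and 2034 in replicate 1 of siErbB4 and siScr. The 8 tested endoderm and hepatic markers had a median of 0.62, with 1 called higher, and sums of 17.7 and 16.7 in replicate 2 of siErbB4 and siScr, against 11.5 and 10.1 in replicate 1 of siErbB4 and siScr, while Alb and Apoa1 were too dim to test.

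Over 12 pluripotency markers the median difference, replicate 2 minus replicate 1, was -0.06, and 0 were called by limma in either direction. Their sums were 33.2 and 29.6 in replicate 2 of siErbB4 and siScr, against 44.0 and 28.2 in replicate 1 of siErbB4 and siScr. Of the remaining lists, 6 endothelial markers had a median of -0.31, 5 neural markers -0.22 and 3 blood markers -0.15, with 1 blood marker called higher. Endothelial sums were 3.55 and 4.60 in replicate 2 of siErbB4 and siScr, against 3.39 and 3.51 in replicate 1 of siErbB4 and siScr. They were thus higher in replicate 2 although the median was below 0. A sum leans on its brightest probes. Neural sums were 8.64 and 10.6 in replicate 2 of siErbB4 and siScr, against 13.4 and 19.6 in replicate 1 of siErbB4 and siScr. Blood sums lay between 5.90 and 6.94. Ptprc and the globin genes were too dim to test. The part of these cell types in the replication gene values was not tested.

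**Figure D5:**
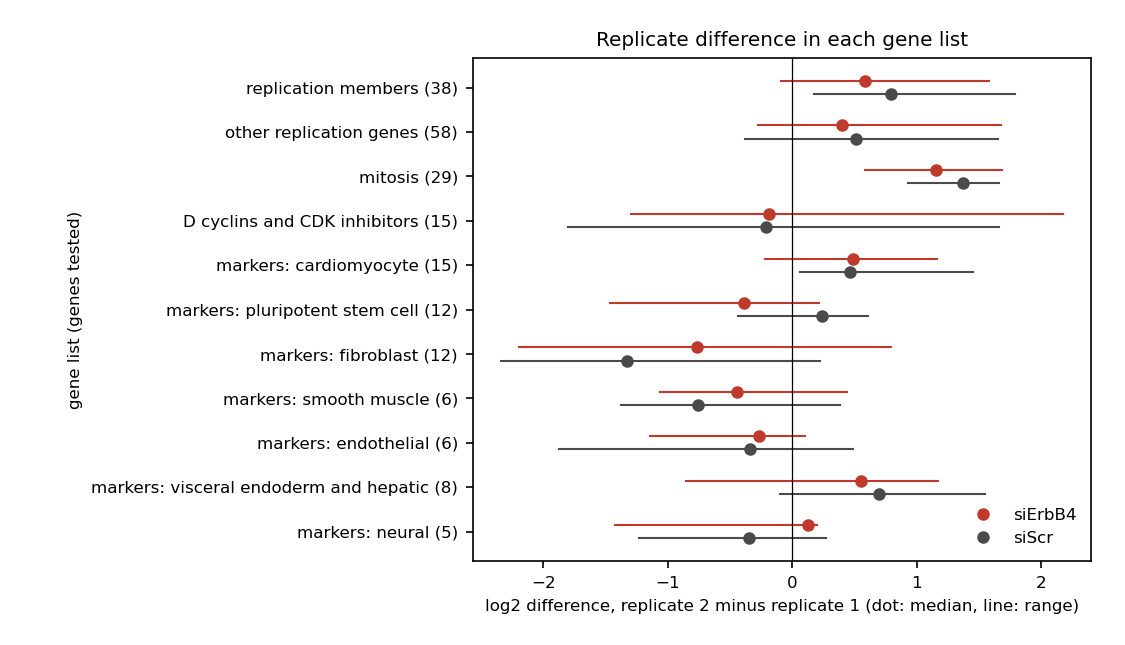
Log2 difference, replicate 2 minus replicate 1, in siErbB4 and in siScr for the replication genes and other gene lists. Dots are medians over the tested genes, lines the range, and the number of genes stands in brackets. Blood markers are not drawn. Replication genes have medians of 0.58 in siErbB4 and 0.79 in siScr, and fibroblast markers -0.76 in siErbB4 and -1.32 in siScr.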

How the data were processed

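Total RNA was measured on 1-colour (Cy3) Agilent arrays. The submitters' processing notes name Agilent Feature Extraction 10.7.1.1. The deposited processed intensity had its background subtracted and spatial trends removed within each array, per the file headers, with no scaling between arrays, and the raw median intensities and spot flags were deposited beside it. The authors' deposited value table holds log2 processed signals minus each array's 75th percentile. It was compared with the scanner values (lowest Pearson correlation 0.999999, largest difference 0.312, column medians -3.83, -3.86, -3.81 and -3.83 for siErbB4 1, siErbB4 2, siScr 1 and siScr 2), which settled scale, centring and direction.

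Control spots (1377 of 44397) and outlier-flagged spots (131 to 179 per array) were left out, no spot was saturated, and spots of a probe were averaged. Log2 processed signals minus the 75th percentile were used. Probes were kept if both arrays of either group showed them well above background (25679 of 39429), with the brightest probe per gene. Accessions named 27502 probes through RefSeq (GRCm38.p6), and unnamed probes stayed in the tests. Limma 3.58.1 (R 4.3.3) was fitted to the group and, apart from that, to the replicate number, over all features and two-sided, with Benjamini-Hochberg adjustment at 0.05. The fits were also tested on simulated data. The arrays simulated for the group fit held no replicate difference, so they do not show how that fit performs with the one found here. Normexp, an alternative, used the median signals of spots and of their surroundings. Precision is limited by the number of arrays. The members, the gene lists and the alternatives were chosen with earlier results of these data known. Genes outside the set were named as those with the lowest p in a list: 4 other replication genes, and 2 each of mitosis and of D cyclins and CDK inhibitors, per comparison, of which 1 is not reported here.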

Additional observations from a re-analysis of the deposited data

Results flagged for a closer look

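The difference between replicates ran in opposite directions in the siErbB4 and siScr arrays at Orc6 and Slbp. Orc6 differed by -0.0712 in siErbB4 and 0.18 in siScr, and Slbp by -0.0913 in siErbB4 and 0.64 in siScr (log2, replicate 2 minus replicate 1). With 1 array on each side, this difference between the groups was not tested.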

How the results depend on the processing

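For replicate 2 against replicate 1, the main fit called 1087 features and 12 replication genes. With normexp background correction 1889 features (9.03%) and 24 members were called, and with quantile normalization 957 features (4.58%) and 7 members. With no filter on dim probes limma called 0 features and 0 members (4679 features and 30 members at an unadjusted p under 0.05). Leaving out 1 array in turn gave 0 to 1551 features, 0 to 24 members and a median of 0.55 to 0.84 over the members. Within siErbB4, normexp gave 3 members past 1 and a median of 0.51. Rrm2, Tk1, Rrm1, Cdc45, Chaf1b and E2f1 were each called under 8 of the 12 alternatives. The causes were not tested. For siErbB4 against siScr, limma called 0 features and 0 members under every alternative run, with at most 3 members at an unadjusted p under 0.05, and leaving out 1 array in turn moved the members' median between -0.22 and 0.55. Leaving out an array makes the groups unequal in replicate number, so the replicate difference enters that median. With the replicate number as a block, the median was 0.17, and limma called 0 features and 0 members. An unadjusted limma p under 0.05 was then found for 1562 features, against 374 without the block. Deviations of same-numbered arrays from their group means correlated at 0.678 across features. Only 2 numbers are shared, and no label says that they pair the samples. Signals near background limit Ccne2, Chek1 and Erbb4, and 2 arrays per group limit every comparison.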
